A study of Mus musculus with 23 samples.

Results

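Drd1, Drd2, Adora2a, Penk, Adcy5, Rasd2, Scn4b, Ppp1r1b and Rgs9 are genes of dopamine and adenosine signalling in the projection neurons of the striatum. These 9 genes, of 18578 in the deposited table, were looked up by symbol and were picked because earlier results of these data had shown such genes lower in shocked mutant mice than in shocked wild-type mice, so the values of that contrast are given as a description and support nothing. All 9 were found and all 9 had a mean above the minimum of 10 that 17118 genes passed. The libraries came from brain RNA of male C57BL/6J mice that were wild type (WT) or carried 1 copy of the C456Y allele of Grin2b (HT, called heterotype in the labels). The product of Grin2b, GluN2B, is part of NMDA receptors, which are ion channels opened by glutamate. Mice of each genotype were either left as controls or given foot-shock, an aversive electrical stimulus. There were 6 libraries each for WT control, HT control and HT shock, and 5 for WT shock. The sample labels give postnatal day 17 and the series text speaks of adult animals, so the age is not settled, and neither the brain region nor the interval between shock and collection is named. Whether libraries of a group are separate animals is not stated, so the p-values reflect spread among libraries that could be technical.

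Striatal projection neurons are inhibitory cells that make up most of the striatum and receive glutamate from the cortex and thalamus and dopamine from the midbrain. Cells of the direct pathway carry the D1 dopamine receptor, which raises cyclic AMP, whereas cells of the indirect pathway carry the D2 dopamine receptor, which lowers it, together with the adenosine receptor encoded by Adora2a, which raises it, and the peptide enkephalin. In both kinds of cell these receptors act on adenylyl cyclase type 5, the main enzyme that makes cyclic AMP in the striatum, and on the phosphoprotein made from Ppp1r1b.

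The RefSeq table of promoters (GRCm38.p6) held entries for 6 of the 9 genes. The stretch upstream of the start is printed for the 2 dopamine receptor genes and for Adcy5, the enzyme on which both receptors converge. A link between these sequences and the levels of the genes was not tested. Sequences are written 5′ to 3′ on the strand of the gene, and capitals mark each GC box, GGGCGG or its reverse complement CCGCCC.
Drd1, chr13:54055706-54055908, minus strand: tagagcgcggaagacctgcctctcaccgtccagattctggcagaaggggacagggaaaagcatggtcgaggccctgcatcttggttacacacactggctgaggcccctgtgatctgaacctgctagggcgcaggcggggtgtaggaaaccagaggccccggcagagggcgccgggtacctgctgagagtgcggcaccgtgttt
Drd2, chr9:49340153-49340402, plus strand: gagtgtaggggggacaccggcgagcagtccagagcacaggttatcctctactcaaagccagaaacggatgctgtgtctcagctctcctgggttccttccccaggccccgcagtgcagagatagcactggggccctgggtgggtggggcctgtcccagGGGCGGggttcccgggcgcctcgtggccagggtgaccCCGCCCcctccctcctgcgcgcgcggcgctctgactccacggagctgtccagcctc
Adcy5, chr16:35154614-35154863, plus strand: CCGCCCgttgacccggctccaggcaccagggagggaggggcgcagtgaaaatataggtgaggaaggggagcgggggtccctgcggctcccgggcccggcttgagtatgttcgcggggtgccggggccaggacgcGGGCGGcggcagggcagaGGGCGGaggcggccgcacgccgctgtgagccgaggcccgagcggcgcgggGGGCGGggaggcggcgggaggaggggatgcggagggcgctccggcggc
The Adcy5 stretch of 250 bases held 4 GC boxes at a GC content of 78.0%. Drd2 held 2 at 68.8%, and the 203 bases of Drd1 held 0 at 62.6%. Among the other genes with an entry, Rgs9 held 1 GC box, and Rasd2 and the 21 bases left for Scn4b held none. Of 32851 RefSeq windows of 250 bases, 32.7% held a GC box on either strand. The core of the cyclic AMP response element (TGACG, either strand) stood in 17.8% of those windows and in 0 of the 6 genes. A TATA box (TATAAA, either strand) stood in 12.4% of windows and in Rgs9 alone of the 6. A match is only a run of letters and is no evidence of binding.

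The deposited values are normalized counts, that is, read counts that were scaled between libraries, and library totals lay between 30.98 M and 32.57 M (M, mega). They do not show the sequencing depth, which is unknown. All pairs of libraries correlated between 0.9807 and 0.9908 across genes on the log2 scale. Grin2b, which carries the edited allele but is not deleted, had 13621 ± 1019 normalized counts (SD, n = 6) in WT control and 10704 ± 655 (n = 6) in HT shock. These groups differ in both genotype and treatment. Grin2b ran from 10734 to 14218 in WT shock and from 9556 to 14275 in HT control, and its level does not check the genotype labels. A few libraries stood apart for the 9 genes. HT shock replicate 1 was the lowest of all 23 libraries for 9 of 9 genes, and HT shock replicate 4 was the second lowest for 9 of 9. HT control replicate 6 was the lowest of the HT control libraries for 7 of 9, and the median differences of the 9 genes are also given without these libraries.

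In WT control brains the genes differed widely in abundance when normalized counts were divided by exon length. Penk, the precursor of enkephalin, led with 3976 ± 262 normalized counts per kilobase (SD, n = 6), followed by Ppp1r1b at 2660 ± 179 and Scn4b at 1775 ± 117. Rasd2 (1208 ± 43.4) and Adcy5 (1165 ± 61.4) came next and overlapped each other. The receptors were far lower, with Drd2 at 372 ± 40.7, Adora2a at 365 ± 16.9 and Drd1 at 251 ± 15.5, and Rgs9 lay among them at 330 ± 22.1. Drd2, Adora2a and Rgs9 overlapped their neighbours in this order, and Drd1 was last.

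Drd1 encodes the D1 receptor of the direct pathway (GRCm38 chromosome 13, 54051183 to 54055705, minus strand, protein coding, as are all 9). Its normalized counts were 825 at the lowest, 909 at the median and 997 at the highest in WT control, and 1003, 945, 832, 876 and 826 in WT shock. They were 587, 735 and 906 in HT control and 448, 636 and 805 in HT shock. Both WT groups covered nearly the same range, and every HT shock library lay below every WT shock library. The mean was 896 ± 76.0 (SD, n = 5) in WT shock and 628 ± 128 (n = 6) in HT shock, which is 29.9% lower.

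Drd2 encodes the D2 receptor of the indirect pathway (chromosome 9, 49340627 to 49408177, plus strand). It ran from 815 through a median of 958 to 1074 normalized counts in WT control and stood at 850, 902, 961, 904 and 988 in WT shock. In HT control it ran from 717 through 796 to 847, and in HT shock from 469 through 618 to 825. The HT shock libraries again lay below all WT shock libraries, with a mean 31.0% lower, at 635 ± 125 against 921 ± 54.4 normalized counts. Although Drd1 and Drd2 mark different cells, their ratio was 0.974 ± 0.133 in WT control, 0.980 ± 0.140 in WT shock, 0.937 ± 0.0934 in HT control and 0.992 ± 0.111 in HT shock. The ratios of the 4 groups differed by less than their spread.

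Adora2a encodes an adenosine receptor that opposes the D2 receptor within indirect pathway cells (chromosome 10, 75316877 to 75334784, plus strand). Its normalized counts ran from 1052 through 1132 to 1174 in WT control and were 1064, 1160, 1018, 1082 and 1102 in WT shock. They ran from 850 through 932 to 1090 in HT control and from 430 through 692 to 891 in HT shock. Adora2a had the widest gap of the 9 genes between shocked mutant and shocked wild-type brains. Its mean was 692 ± 181 in HT shock against 1085 ± 52.0 in WT shock, 36.3% lower, and no HT shock library reached a WT shock library.

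Penk is made by the same indirect pathway cells (chromosome 4, 4133531 to 4138819, minus strand), and it differed far less. It ran from 5928 through 6560 to 7066 normalized counts in WT control and stood at 6535, 6260, 6096, 5766 and 6244 in WT shock. In HT control it ran from 5298 through 5862 to 6089, and in HT shock from 4031 through 5576 to 6310. HT shock replicates 2, 3 and 5 lay within the WT shock range while replicates 1, 4 and 6 lay below it, and the HT shock mean was 12.1% lower. The ratio of Penk to Adora2a was 5.82 ± 0.463 in WT control, 5.70 ± 0.356 in WT shock, 6.21 ± 0.580 in HT control and 8.05 ± 0.975 in HT shock. In HT shock it ran from 7.08 to 9.38, above the range of each of the other groups, whose highest value was 6.96. In these values Penk differed less than Adora2a between HT shock and WT shock. Both genes were chosen on that contrast, so the ratio is a description. Bulk brain RNA does not show which cells the reads of either gene came from. The ratio of Penk to Drd2 was 8.62 ± 0.794 in HT shock against 6.73 ± 0.594 in WT shock, with ranges that overlapped.

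**Figure D1:**
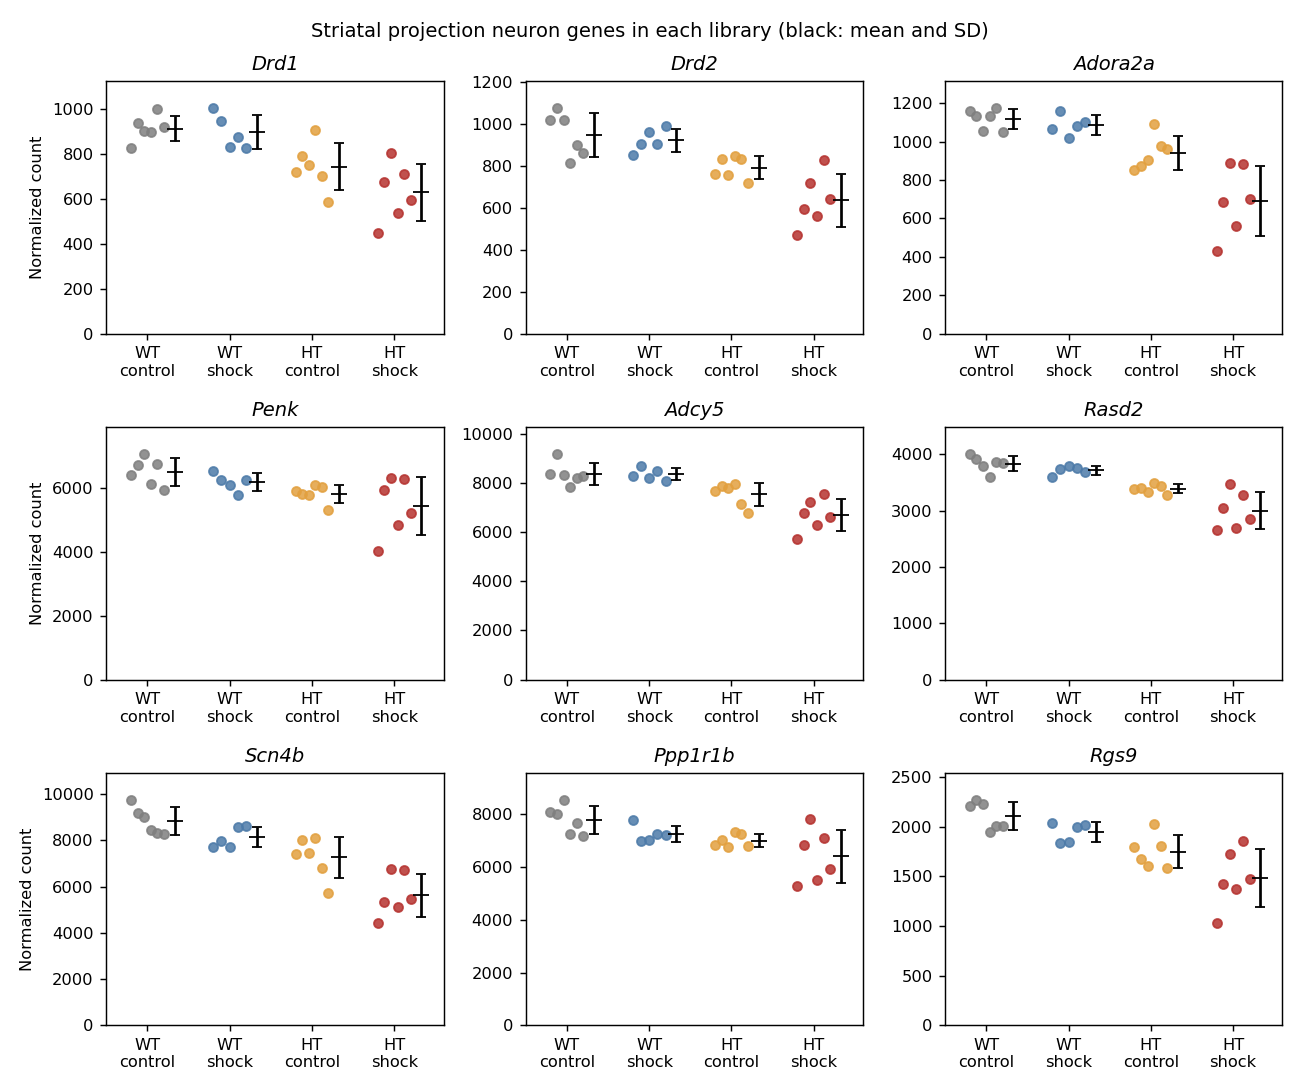
Normalized counts (y axis, from 0) of each of the 9 genes in every library of the 4 groups (x axis); points are libraries and bars are group means with their SD. Adora2a in HT shock lies between 430 and 891, below all WT shock libraries, whereas Penk in HT shock spans 4031 to 6310 and overlaps them.

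Adcy5 encodes the adenylyl cyclase on which the dopamine and adenosine receptors act (chromosome 16, 35154877 to 35305738, plus strand). It ran from 7852 through 8287 to 9184 normalized counts in WT control and stood at 8303, 8709, 8224, 8503 and 8082 in WT shock. It ran from 6764 through 7744 to 7944 in HT control and from 5721 through 6687 to 7550 in HT shock. The WT groups had means of 8367 ± 441 and 8364 ± 246, and the HT shock mean of 6693 ± 653 was lower, with no overlap with WT shock.

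Ppp1r1b encodes a protein phosphatase inhibitor that dopamine switches on through cyclic AMP (chromosome 11, 98348404 to 98357796, plus strand). Its normalized counts ran from 7176 through 7835 to 8550 in WT control and were 7781, 7005, 7015, 7245 and 7232 in WT shock. They ran from 6769 through 6931 to 7313 in HT control and from 5273 through 6382 to 7825 in HT shock. Like Penk it overlapped widely: HT shock replicate 3, at 7825, was above every WT shock library, and the HT shock mean was 11.7% lower.

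Rgs9 encodes a protein that speeds the shut-off of G proteins below the D2 receptor (chromosome 11, 109225355 to 109298129, minus strand). It ran from 1946 through 2104 to 2272 normalized counts in WT control and stood at 2039, 1841, 1844, 1999 and 2020 in WT shock. It ran from 1584 through 1733 to 2031 in HT control and from 1028 through 1448 to 1861 in HT shock. Only HT shock replicate 5, at 1861, reached into the WT shock range, and the HT shock mean was 24.0% lower.

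Rasd2 encodes a small GTP-binding protein, also called Rhes, that is rich in the striatum (chromosome 8, 75213944 to 75224113, plus strand). Its normalized counts ran from 3597 through 3859 to 4006 in WT control and were 3601, 3732, 3798, 3751 and 3679 in WT shock. They ran from 3285 through 3393 to 3495 in HT control and from 2653 through 2955 to 3478 in HT shock. Rasd2 was the steadiest of the 9 genes within WT shock, with an SD of 2.03% of the mean, and every HT library, shocked or not, lay below every WT library of the same treatment. The HT shock mean was 19.2% below WT shock.

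Scn4b encodes an auxiliary subunit of voltage-gated sodium channels that is abundant in these neurons (chromosome 9, 45138395 to 45154152, plus strand). It ran from 8300 through 8736 to 9763 normalized counts in WT control and stood at 7738, 7995, 7739, 8586 and 8619 in WT shock. It ran from 5719 through 7454 to 8126 in HT control and from 4448 through 5389 to 6777 in HT shock. Scn4b was the other gene for which HT and WT libraries of the same treatment did not overlap in either treatment, and its HT shock mean was 30.7% below WT shock. In bulk brain RNA, fewer striatal cells in a sample and less RNA per cell cannot be told apart.

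The question of whether the mutant and wild-type brains differed after foot-shock was addressed first. The main fit took 1 spread per gene for all 4 groups, so the standard errors, p-values and calls of every comparison assume equal spread. For Adora2a the SD of log2 values was 0.40 in HT shock, 0.13 in HT control and 0.07 in each WT group. On the scale log2(normalized count + 1), the HT shock minus WT shock difference was -0.69 ± 0.12 (SE) for Adora2a, -0.56 ± 0.10 for Drd2, -0.54 ± 0.09 for Scn4b and -0.53 ± 0.11 for Drd1. It was -0.42 ± 0.10 for Rgs9, -0.33 ± 0.05 for Adcy5 and -0.31 ± 0.05 for Rasd2. Penk (-0.20 ± 0.08) and Ppp1r1b (-0.19 ± 0.07), the 2 most abundant of the 9 per kilobase, had the smallest differences. In the limma fit over all genes, 7 of the 9 were called lower at an adjusted p under 0.05 and Penk and Ppp1r1b were not, while 5.33% of all genes tested were called lower and 3.95% higher. In 6 of the 9, all but Penk, Ppp1r1b and Rgs9, each HT shock library was below each WT shock library, as were 4.82% of all genes. The genes were chosen on this contrast and nothing is read from either count.

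Control mutant brains were then compared with control wild-type brains, which share no library with the contrast above. All 9 genes had lower means in HT control, with a median log2 difference of -0.25, against a median of -0.000748 over all genes tested. The differences ran from -0.31 ± 0.11 for Drd1 and -0.29 ± 0.09 for Scn4b to -0.15 ± 0.05 for Adcy5 and -0.15 ± 0.07 for Ppp1r1b. None of the 9 was called, with adjusted p between 0.291 and 0.457 from limma with Benjamini-Hochberg adjustment, and 0% of all genes tested were called in either direction. At an unadjusted p under 0.05, 8 of the 9 were lower, against 6.11% of all genes. Rasd2 and Scn4b had no overlap between the groups, 2 of 9 against 0.234% of all genes. The 9 genes were chosen with earlier results of these data known and varied together across libraries, so these counts are a description. For all 9 genes the HT control mean thus lay between the WT shock and HT shock means, without a call for any of them.

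In wild-type brains no difference of the 9 genes between foot-shock and control passed the test. Their median log2 difference, WT shock minus WT control, was -0.05, and the range went from -0.12 ± 0.09 for Scn4b to 0.00 ± 0.05 for Adcy5. Each of the 9 had overlapping groups, where only 0.210% of all genes were lower and 0.164% higher without overlap. Each had an adjusted p of 0.998 by limma, and 0% of all genes were called in either direction. At an unadjusted p under 0.05, 0 of 9 were lower, against 1.68% of all genes. For Drd1, Drd2 and Adora2a the differences were -0.03, -0.04 and -0.04. The WT shock libraries of this comparison also entered the choice of the genes, so these values are a description.

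In mutant brains the 9 genes had lower means after foot-shock, and here the call depended on single libraries. The HT shock minus HT control difference was -0.49 ± 0.12 for Adora2a, -0.37 ± 0.09 for Scn4b and -0.34 ± 0.09 for Drd2, and -0.12 ± 0.08 for Penk. The median of the 9 was -0.25, against 0.00301 over all genes. With all libraries, 0 of the 9 were called (limma adjusted p from 0.212 to 0.502) and 0% of all genes were called in either direction, while 7 of 9 were lower at an unadjusted p under 0.05, as were 6.74% of all genes. Every one of the 9 overlapped between these groups, where only 0.105% of all genes were lower and 0.181% higher without overlap. Without HT control replicate 6, the lowest control for most of the genes, 6 of 9 were called lower, namely Drd1, Drd2, Adora2a, Adcy5, Rasd2 and Scn4b, beside 7.57% of all genes. With libraries weighted by their scatter, the same genes except Drd1 were called, 5 of 9, beside 9.24% of all genes. The HT shock libraries of this comparison also entered the choice of the genes.

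The difference between the shock responses of the 2 genotypes was tested directly by the interaction term. The HT shock and WT shock values on which the genes were chosen enter this term, so its sign and counts are a description. It was negative for 9 of 9 genes, with a median of -0.18, and largest for Adora2a (-0.44 ± 0.17) and Drd2 (-0.30 ± 0.14). It was smallest for Penk (-0.04 ± 0.11) and Ppp1r1b (-0.04 ± 0.10). None was called, with limma adjusted p between 0.758 and 0.945, and 0% of all genes were called. Adcy5, Adora2a and Drd2 had an unadjusted p under 0.05, 3 of 9 against 2.92% of all genes that were lower at that level. A different response to shock in the mutants was not shown for any of the 9, and Penk and Ppp1r1b turned to 0.04 and 0.01 without HT shock replicate 1. Without replicate 4, Ppp1r1b stood at 0.00.

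**Figure D2:**
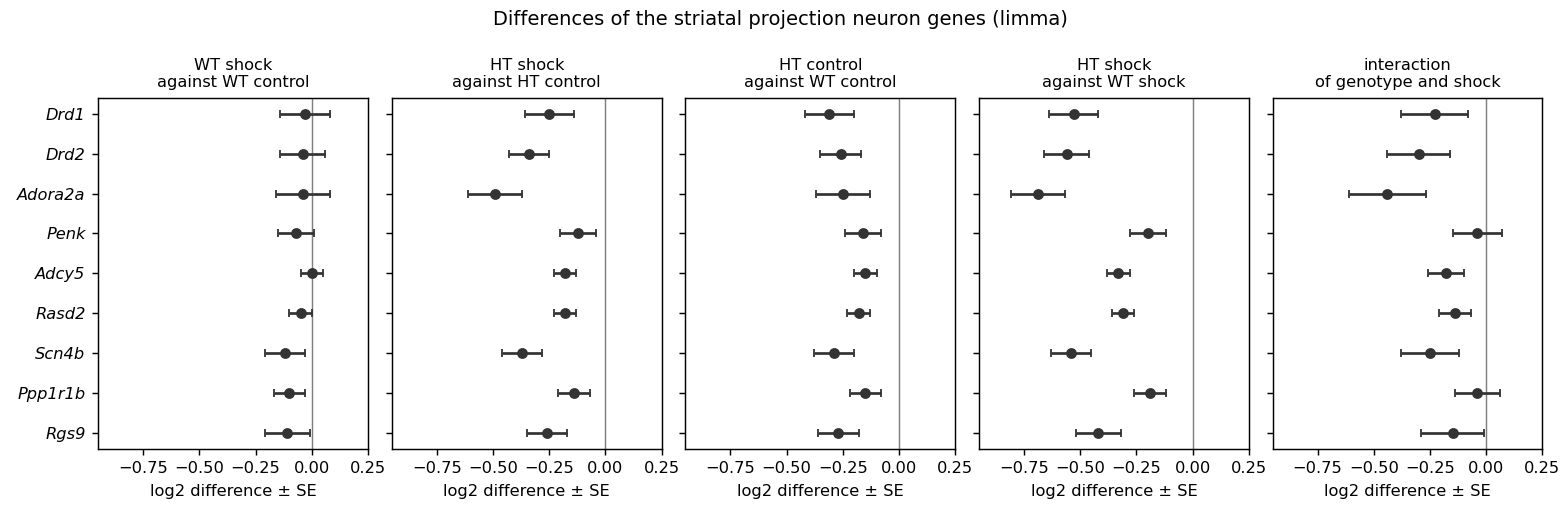
Log2 differences with standard errors (x axis) for the 9 genes in the comparisons and in the interaction of genotype and shock; points are the fitted values over 23 libraries. The points for wild-type shock lie near 0, between -0.12 and 0.00, and those for HT shock against WT shock lie between -0.69 and -0.19.

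Within the shocked mutant group the 9 genes went up and down together from library to library. The mean of their log2 deviations from the WT control mean was -0.86, -0.45, -0.22, -0.64, -0.22 and -0.50 in HT shock replicates 1 to 6. Replicates 3 and 5 thus lay as close to wild type as the average HT control library, whose mean deviation was -0.22 ± 0.09 (SD, n = 6), whereas replicates 1 and 4 lay farthest away. The group mean was -0.48 ± 0.25 in HT shock and -0.06 ± 0.02 (n = 5) in WT shock. For single genes the SD of log2 values was 0.14 to 0.40 in HT shock and 0.03 to 0.12 in WT shock. Without HT shock replicate 1, the median difference between HT shock and WT shock was -0.32 in place of -0.42, and that between HT shock and HT control was -0.16 in place of -0.25. In the latter Penk went from -0.12 to -0.03. Without HT shock replicate 4 the same medians were -0.40 and -0.21, and the median of the interaction was -0.16. Without HT control replicate 6 the median between HT control and WT control was -0.22 in place of -0.25.

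**Figure D3:**
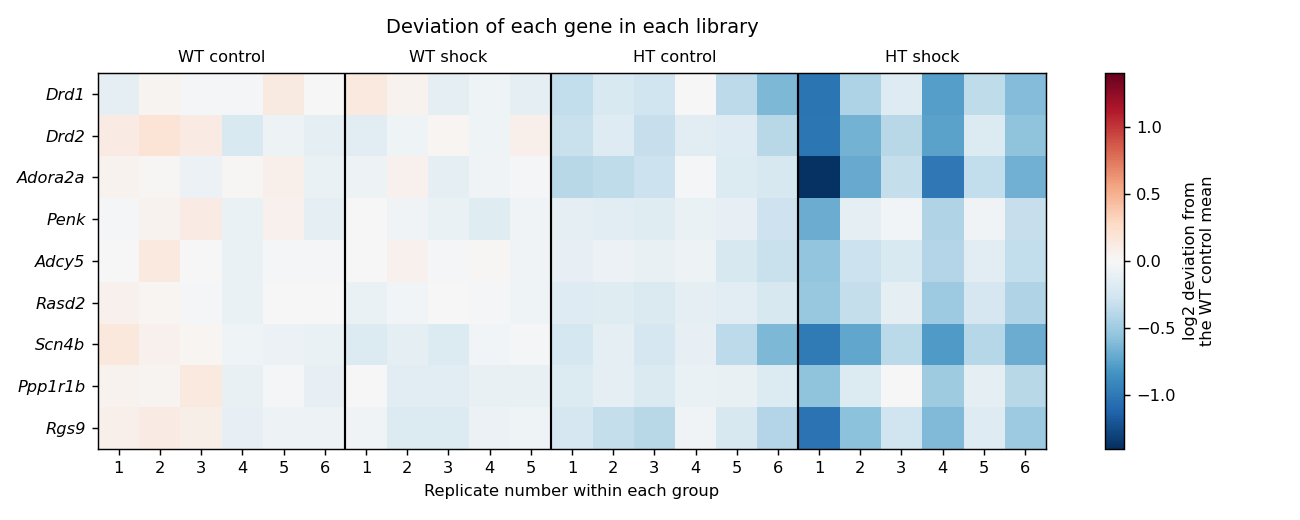
Log2 deviation of each of the 9 genes (rows) from its WT control mean in each of the 23 libraries (columns, by group), with colour from lower to higher. The columns of HT shock replicates 1 and 4 are the lowest throughout, with mean deviations of -0.86 and -0.64.

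After group means were subtracted, the 36 pairs of the 9 genes had Pearson correlations of 0.57 to 0.90 over 23 libraries, with a median of 0.78. Penk and Ppp1r1b, which differed least between HT shock and WT shock, were the closest pair, and Drd1 and Drd2 the least close. Without the HT shock group, 17 libraries, the same pairs ran from 0.01 to 0.75 with a median of 0.42. These values are descriptions, since the genes share libraries and the makeup of each sample. Among 17109 other genes, those whose pattern was most like the mean of the 9 included Pde1b (0.93), Gng7 (0.91), Lrrc10b (0.88), Syndig1l (0.87), Gpr6 (0.86), Slc35d3 (0.85) and Cd4 (0.82), where the median gene had 0.00. Pde1b encodes an enzyme that degrades cyclic nucleotides, Gng7 a G protein gamma subunit of the pathway to adenylyl cyclase, and Gpr6 an orphan receptor found in the striatum.

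Other genes of the same signalling cascade did not all share the difference between HT shock and WT shock. In this contrast 14.8% of all genes were lower and 13.1% higher at an unadjusted p under 0.05, and 49.2% had a negative difference. At an adjusted p under 0.05 by limma, 5.33% of all genes were called lower and 3.95% higher. Of 22 genes for shared signalling in projection neurons, 7 were called lower and 1 higher, with a median of -0.04. Among them Pde10a, which encodes a phosphodiesterase that breaks down cyclic nucleotides, differed by -0.66 ± 0.12 (limma adjusted p 0.0063), Pde7b by -0.40, Strn by -0.37 and Gng7 by -0.35. The muscarinic receptor gene Chrm1 was higher, by 0.23. Gnal, for the G protein alpha subunit that couples the D1 receptor to adenylyl cyclase, was also lower (-0.23), and it is named here after its value was seen. Some of these genes were known from earlier results of these data, so their count is no independent evidence.

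Markers of 1 projection pathway other than the receptors mostly had no difference that passed the test. Of all genes tested, 5.33% were called lower and 3.95% higher. Of 8 direct-pathway markers, 1 was called lower, Slc35d3 (-0.55), while the peptide genes Tac1 (-0.09 ± 0.06) and Pdyn (0.09 ± 0.07) and the muscarinic receptor gene Chrm4 (0.06 ± 0.10) were not called, and the median was -0.02. Of 5 measured indirect-pathway markers, 1 was called lower, Gpr6 (-0.51), with a median of -0.08. Of 7 transcription factors of striatal neurons, 4 were called lower, namely Rxrg (-0.39), Bcl11b (-0.30), Foxp1 (-0.29) and Foxp2 (-0.26). Of 11 tested genes for other dopamine and adenosine receptors and adenosine handling, 0 were called by limma. An unadjusted p under 0.05 was reached by 2 of them, where 14.8% of all genes were lower and 13.1% higher at that level. The median of the 11 was 0.00, and the adenosine A1 receptor gene Adora1 stood at 0.00. Among direct-pathway genes, Drd1 and Slc35d3 thus had lower values, while Tac1, Pdyn and Chrm4 had values near those of shocked wild-type brains. Bulk brain RNA does not show which cells the reads of these genes came from.

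Genes of other cells differed in the same contrast, in which 5.33% of all genes were called lower and 3.95% higher. Of 9 tested markers of midbrain dopamine neurons, which supply dopamine to the striatum, 6 were called lower, with a median of -0.41. Slc6a3, the dopamine transporter, was at 62.7 to 279 normalized counts in HT shock and 340 to 632 in WT shock (-1.77 ± 0.37, limma adjusted p 0.0115), whereas Th, the enzyme that starts dopamine synthesis, was not called (-0.18 ± 0.10). Of 9 cortical excitatory markers, 4 were called higher and 0 lower, with a median of 0.16, and their summed level was 49197 to 58498 normalized counts in HT shock, 43582 to 49616 in WT shock, 47523 to 53609 in HT control and 44635 to 47598 in WT control. In HT shock replicates 1 to 6 the cortical sum was 58498, 57657, 54856, 55155, 49197 and 51584. The summed level of the 9 genes in these libraries was 24501, 31295, 35758, 27438, 35170 and 29470. Within HT control the cortical sum was highest in replicate 6, the library with low levels of most of the 9 genes.

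Of 7 thalamic markers 3 were called lower, where 5.33% of all genes were called lower and 3.95% higher. The summed level of the thalamic markers was 12032 to 14445 in HT shock against 14487 to 15128 in WT shock. Of 10 oligodendrocyte markers 7 were called lower, with summed levels of 193662 to 242051 in HT shock and 233602 to 294951 in WT shock. Of 8 interneuron markers 2 were called lower (Slc5a7 and Nos1) and 2 higher (Npy and Sst). Of 8 immediate early genes, which follow neuronal activity, 0 were called by limma. At an unadjusted p under 0.05, 2 were higher, where 13.1% of all genes were higher. Positive differences were seen for 8 of 8, with a median of 0.48, where 49.2% of all genes had a negative difference. Of all markers measured, 0 were at 0 in all libraries, and Pitx3 and Adora3 were at 0 in some. The part that other cell types play in the lower levels of the 9 genes was not tested. In the other comparisons and the interaction, 0% of all genes were called in either direction, which fixed the count of every list at 0.

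**Figure D4:**
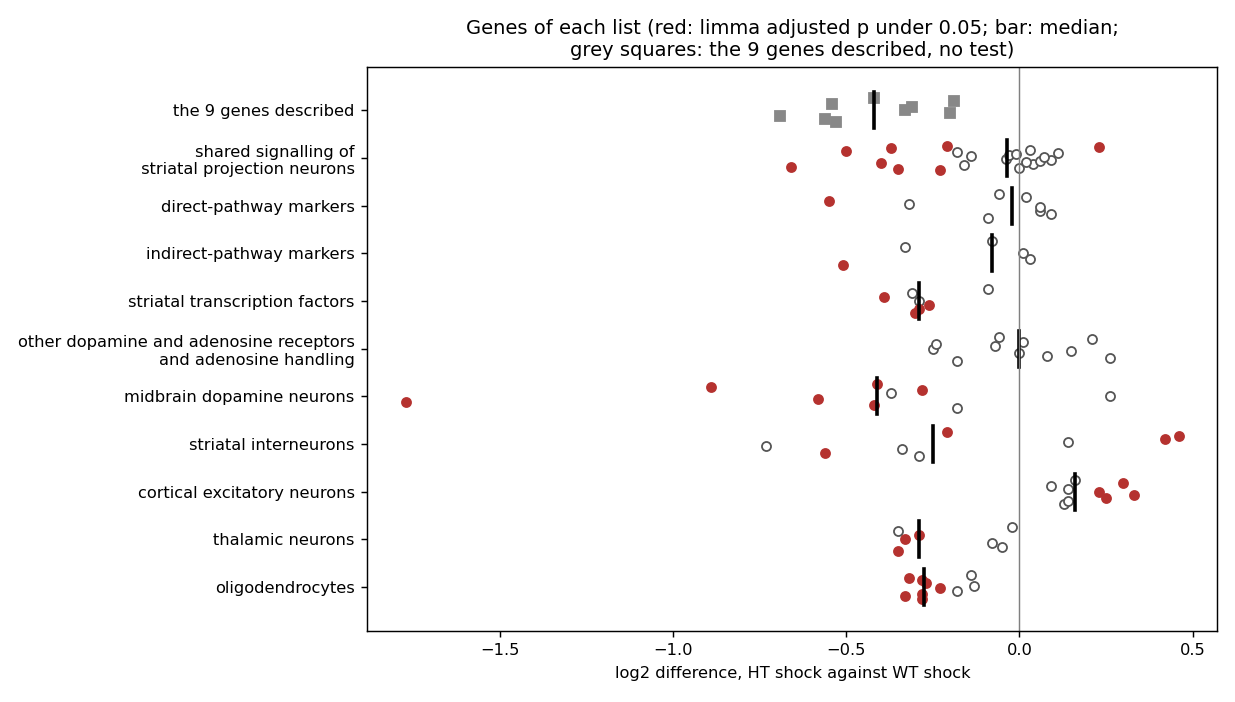
Log2 difference of HT shock against WT shock (x axis) for each gene of the 9 described, of other striatal lists and of lists for other cell types (rows); red points had a limma adjusted p under 0.05, open points did not, grey squares are the 9 genes and bars are medians. The 9 genes have a median of -0.42, direct-pathway markers -0.02 and cortical excitatory markers 0.16.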

How the data were processed

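Brain RNA was profiled after a stranded mRNA library preparation, per the labels' protocols. The authors deposited normalized counts (unit: signal) with decimals for each gene and library. Salmon 1.1.0, R 3.6.2, DESeq2 1.26.0 and GRCm38 appear, per the submitters' processing notes, with no roles given. Whole reads could not be recovered, since only 23.7% to 64.5% of a library's low values came out as whole steps (tolerance 0.1), so depth is unknown and no count model was fitted. The plan named limma for normalized values and a count test for raw counts, and limma was used. The number of library columns that matched no sample, and were left out, was 1.

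Titles gave the groups. Symbols and positions were matched by Ensembl ID for 18563 of 18578 genes. Values were transformed as log2(normalized count + 1), which understates the change of low genes, and the 17118 genes whose mean reached 10 entered 1 limma fit (limma 3.58.1, statmod 1.5.0, R 4.3.3; mean-variance trend, robust moderation) over the 4 groups, adjusted by Benjamini-Hochberg over all genes with 0.05 as the threshold. The fit was tested on simulated data. The genes described, the lists (the cell types named in the report, and hippocampal, cerebellar, hypothalamic, astrocyte, microglial, endothelial and choroid plexus markers) and the tests were chosen with earlier results of these data known. Named are the 9 genes, Grin2b, up to 6 called genes of a list, markers of the projection pathways and of dopamine and adenosine signalling, and the 8 genes most alike, of which some are not reported here. In HT shock against WT shock, astrocyte markers had 2 of 8 called lower, hippocampal markers 1 of 9, and the remaining lists 0. Of all genes, 5.33% were called lower there and 3.95% higher. Over 33 pairs of libraries with the same replicate number the correlation of deviations ran from -0.15 to 0.19. The value of 0.19 was that of HT shock replicate 1 with replicate 1 of WT control and of HT control. Replicate 1 of WT control and of HT control had 0.14 with each other. The main fit took the libraries as unpaired, and whether libraries share a batch was not tested. Alternatives were median centring, no filter, a filter of 20 in 5 or more libraries, a pseudocount of 0.5 or 5, a block for the replicate number, library weights, an adjusted p of 0.1, the compared groups alone and the omission of each library. Figures used matplotlib 3.10.9 in Python 3.11.15.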

Additional observations from a re-analysis of the deposited data

How the results depend on the processing

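Counts and medians of the 9 genes were followed over all comparisons and alternatives, and a count that went from 7 to 8 was taken as unchanged. Counts of higher genes stayed at 0 under every setting. In the main fit 0% of all genes were called except in HT shock against WT shock. Many of these results could therefore hardly change, and their number does not measure robustness. Of them, 490 were unchanged and 2 were not. Both were the number of genes lower in HT shock than in HT control, which was 0 with all libraries, 5 with library weights and 0 to 6 when each library was left out in turn (6 without HT control replicate 6). HT control replicate 6 has the lowest values of most of the 9 genes in its group. For HT shock against WT shock the number of lower genes was 7 to 8 when each library was left out, with Ppp1r1b added without HT shock replicate 3. At an adjusted p of 0.1 the number was 8, beside 1705 of all 17118 genes tested. The 9 genes were chosen on this contrast, so the steadiness of these counts is a description and supports nothing. Over all genes the number called lower in that comparison was 913, from 217 (without HT shock replicate 1) to 1709 (without HT control replicate 6) when each library was left out, and 238 with the replicate number as a block. With that block the count of the 9 genes was 7, and the block changed no call in any comparison of the 9 genes.

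For single genes, 12 values changed sign, all near 0. In WT shock against WT control these were Adcy5 with the replicate block (-0.01) and, with each library left out, Adcy5 (-0.02 to 0.03), Drd2 (-0.08 to 0.00) and Drd1 (-0.07 to 0.00). In the interaction they were Penk (-0.09 to 0.04) and Ppp1r1b (-0.10 to 0.01), both reaching their highest value without HT shock replicate 1. The cause of these changes was not tested. Depth is unknown, so no counting error could be given.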
